A study of Hevea brasiliensis with 21 samples.

Results

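The data described here are 12 latex RNA-seq libraries of the rubber tree clone PB217, taken from the 21 libraries of the series, and they address whether the transcript response to ethephon differed between month 36 and month 1. All 12 libraries of this clone were members, with 3 trees in each of 4 groups and 1 tree per library. The first group held trees at month 36 that received ethephon and were labelled with Tapping Panel Dryness (TPD), and it was set against untreated trees at month 36 labelled healthy. The second pair held ethephon trees at month 1 and untreated trees at month 1, both labelled healthy. The field read as ethephon frequency was 12 applications per year for treated trees and 0 for controls, and it was read from the sample titles, since the treatment field of every sample stated no treatment. All 12 titles also carry the fields T and D1, whose meaning was not interpreted. All trees were wild type, and the tissue was latex. The quantity reported is the interaction, that is the ethephon contrast at month 36 minus the ethephon contrast at month 1, on the log2 scale. At month 36 ethephon and dryness came together in every treated tree, so their parts cannot be told apart.

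Ethephon is a compound that releases ethylene in plant tissue, and it is applied to the bark of rubber trees to prolong the flow of latex after tapping. Latex is the cytoplasm of laticifers, a network of specialised cells in the inner bark that make rubber particles from isoprenoid precursors. TPD is the partial or complete arrest of latex flow along the tapping cut, and it is known to be favoured by frequent tapping and stimulation. Ethylene acts through a signalling cascade that ends on transcription factors of the ERF family, and it acts together with jasmonate, a hormone made from membrane lipids that responds to wounding.

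The libraries held between 16694058 and 23126417 counted read pairs, and 27691 of 86941 contigs reached 1 CPM, the count of pairs scaled to library size, in at least 6 of the 12 libraries and were tested. Each library came from 1 tree, so the spread is that between trees. Replicate 2 of the month 36 ethephon trees with TPD stood apart from the others of its group. Its correlation with them on log2 CPM was 0.916 and 0.929, whereas all other pairs of replicates reached 0.967 to 0.985. The scaling factors for library composition (TMM) were 1.29, 1.42 and 1.12 in month 36 ethephon trees with TPD, against 0.971, 0.936 and 0.892 in month 36 controls. They were 0.989, 0.753 and 0.912 in month 1 ethephon trees, against 0.847, 0.983 and 1.07 in month 1 controls. Harvest day followed the groups at month 36, since the treated trees were all collected on a later day than the controls, and harvest day and treatment cannot be told apart there. The month 1 trees were collected later again and on a single day, so month and harvest date cannot be told apart either, and the 2 months were represented by different trees. Of the 4 latex marker contigs, the most counted, HbTCTP1 (CL1Contig7138), ranged between 1326 and 3308 CPM over the 12 libraries. The others varied more, with the second HbTCTP1 contig (CL1Contig21026) between 2.18 and 10.1 CPM and Hev b 4 (CL10238Contig1) between 0.77 and 42.1 CPM, lowest in a month 36 ethephon tree with TPD. The transcription factor lMYC5 (CL10144Contig1) ranged between 3.64 and 343 CPM. The 5 photosynthesis contigs together reached at most 2.81 CPM, and the 51 contigs that match powdery mildew genes reached at most 0.51 CPM.

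The ethephon response differed between the months for 2101 contigs at an adjusted p under 0.05 (edgeR quasi-likelihood test, Benjamini-Hochberg). Among them 752 contigs, 2.72% of those tested, had a positive interaction, meaning a more positive ethephon contrast at month 36 with TPD than at month 1. A further 1349 contigs, 4.87%, had a negative one. In the same fit of all 12 libraries, the month 36 contrast called 2925 contigs higher (10.6%) and 3656 lower (13.2%) in ethephon trees with TPD than in controls. Fitted on only the 6 libraries of that month, with 1 CPM in at least 3 of them, it called 2604 contigs in either direction. The month 1 contrast called 0 contigs (0%), and 1167 contigs reached an unadjusted p under 0.05, which is 4.21% of those tested. On the same libraries the DESeq2 Wald test called 11 contigs at month 1 and the edgeR likelihood ratio test called 8. The lowest adjusted p at month 1 was 0.427. Since no contig was called at month 1 in the reported fit, the fate of a month 1 response at month 36 could not be followed there. With no CPM filter, 169 contigs were called at month 1, and 66 of them were also called at month 36 in the same direction. The share over all contigs was not set beside these 66, so they are a description.

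**Figure D1:**
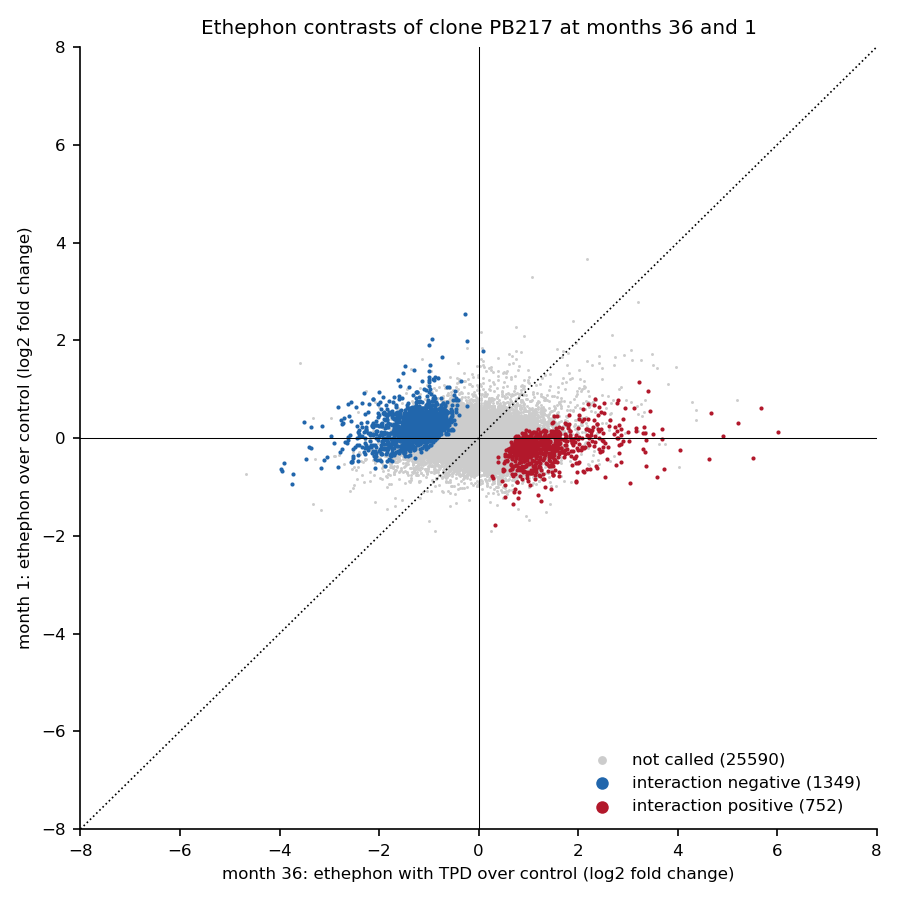
Log2 fold change of each of the 27691 tested contigs at month 36 (ethephon with TPD over control, horizontal axis) and at month 1 (ethephon over control, vertical axis), with the 752 contigs of positive interaction in red, the 1349 of negative interaction in blue and the dotted line marking equal response. The red and blue contigs spread mainly along the horizontal axis, with medians of 1.15 and -1.19 there and of -0.18 and 0.23 on the vertical axis.

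Both sets of interaction calls rested mainly on the month 36 contrast. Of the 752 contigs with a positive interaction, 714 were also called higher at month 36, and of the 1349 with a negative one, 1310 were also called lower there. This count is a description, because the interaction contains the month 36 contrast and shares its libraries. The median log2 fold change of the positive set was 1.15 at month 36 and -0.18 at month 1. For the negative set it was -1.19 at month 36 and 0.23 at month 1. The month 1 values of these sets lean the opposite way by construction, as a contig with an opposite month 1 value has a larger difference. Over all tested contigs the median log2 fold change was 0.01 at month 36 and -0.01 at month 1. In size, 140 positive and 203 negative interactions exceeded 2 log2 units, and 10 positive and 0 negative ones exceeded 4. Of the 6581 contigs called at month 36, 69.2% were not called in the interaction, so for these the month 36 and month 1 responses were not shown to differ. For reference, 7160 contigs (25.9%) differed between month 36 and month 1 among controls, and 9738 (35.2%) between month 36 ethephon trees with TPD and month 1 ethephon trees.

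The contigs with a negative interaction had a median mean count of 391 pairs, those with a positive one 222 and all tested contigs 144. The negative set held 8.42%, 6.39% and 9.9% of counted pairs in the 3 month 36 ethephon libraries with TPD, against 16.9%, 17.2% and 17.5% in the month 36 controls. In month 1 ethephon trees they held 14.3%, 14.2% and 14.3%, against 13%, 12.7% and 13.3% in month 1 controls. The contigs with a positive interaction held 2.97%, 5.09% and 2.32% of pairs in month 36 ethephon trees with TPD, against 0.93%, 0.948% and 0.899% in month 36 controls. They held 1.16%, 0.905% and 1.11% in month 1 ethephon trees, against 1.1%, 1.33% and 1.44% in month 1 controls. These contigs were called on the same libraries, so the direction of their shares in the dry trees follows from the choice and is a description. The exact 95% binomial intervals of these shares span at most a few hundredths of a percent and cover counting error only, for example 8.407% to 8.432% for the first value. With library totals in place of TMM factors, the median interaction of all contigs moved to 0.60 from 0.02, and 4401 positive and 492 negative interactions were called. Changes below are therefore relative to the TMM scale, on which the median contig is near 0, and the called contigs named below kept their direction with library totals. The number of calls also moved with single trees, between 500 without month 1 control replicate 2 and 5255 without replicate 3 of the month 36 ethephon trees with TPD. It was 514 without month 1 control replicate 3, 551 without month 1 ethephon replicate 3, 710 without month 36 control replicate 3, 772 without month 36 control replicate 2, 805 without month 1 ethephon replicate 2, 1102 without month 1 ethephon replicate 1 and 1125 without month 36 control replicate 1. Without replicate 2 of the month 36 ethephon trees with TPD, the library that stood apart, it was 2078. Every fit that left out 1 tree called 118 of the 752 positive and 256 of the 1349 negative interactions, in the same direction.

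**Figure D2:**
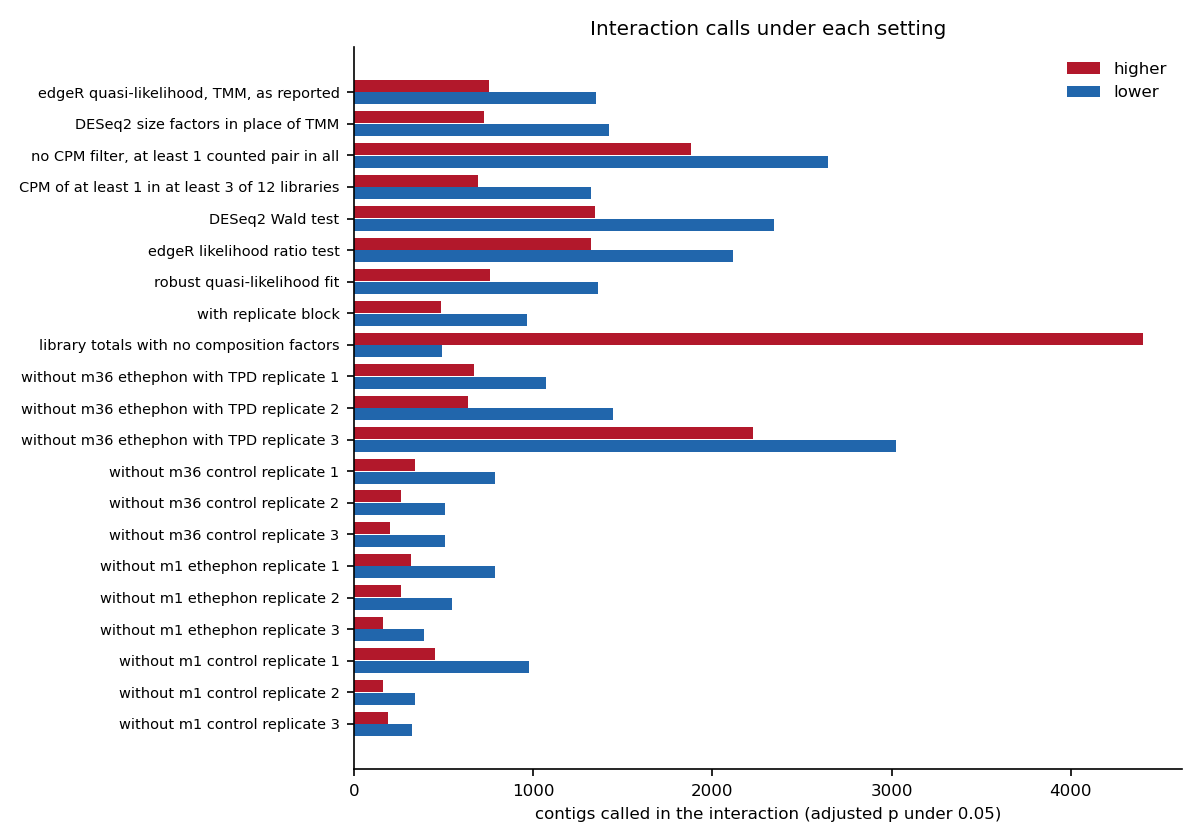
Number of contigs called in the interaction (adjusted p under 0.05, horizontal axis) with a positive (red) and a negative (blue) value under each setting, the top row being the fit reported in the text. Leaving out single trees gives between 500 and 5255 calls, and library totals turn the balance to 4401 positive against 492 negative.

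An annotation was held for 235 of the tested contigs, of which 23 (9.79%) had a positive and 6 (2.55%) a negative interaction. These annotations came from lists the study made, among them the top of a table of ethephon responses in another clone, so they are no random sample of contigs. That top part, the PB260 set, is described further on. Called contigs of the groups below that also belong to it appear in both places, so the groups and the PB260 set are not separate results. The 5 largest positive interactions among them were those of a resveratrol di-O-methyltransferase, a metalloendoproteinase, an aldo-keto reductase, a phospholipase A1 and the ethylene-responsive factor ERF112, which all rose at month 36 in the ethephon trees with TPD, called the dry trees here. The highest was CL1Contig5676, annotated as a trans-resveratrol di-O-methyltransferase, which in grapevine methylates a stilbene defence compound. It had 266, 652 and 197 CPM in month 36 ethephon trees with TPD, against 5.39, 11.5 and 7.7 CPM in month 36 controls. At month 1 it had 0.725, 2.05 and 0.696 CPM in ethephon trees, against 0.214, 3.64 and 0.284 CPM in controls. The treated trees at month 36 did not overlap any other group, while the month 1 groups overlapped. Its interaction was 5.91 ± 1.09 log2 units (± standard error, adjusted p = 0.0127), and the call was lost without month 1 control replicate 2 (3.41, adjusted p = 0.132). CL6409Contig1, annotated as metalloendoproteinase 1, a zinc-dependent protease, had 97, 221 and 64.6 CPM in month 36 ethephon trees with TPD, against 0.985, 3.51 and 1.49 CPM in month 36 controls. In month 1 ethephon trees it had 0.966, 0.92 and 0.811 CPM, against 0.712, 1.2 and 0.52 CPM in month 1 controls. Its interaction of 5.89 ± 0.81 (adjusted p = 0.00781) was called in each of the 6 fits without 1 tree in which it passed the filter. None of these fits left out a dry tree, so they could not show whether the call rested on 1 of those trees.

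**Figure D3:**
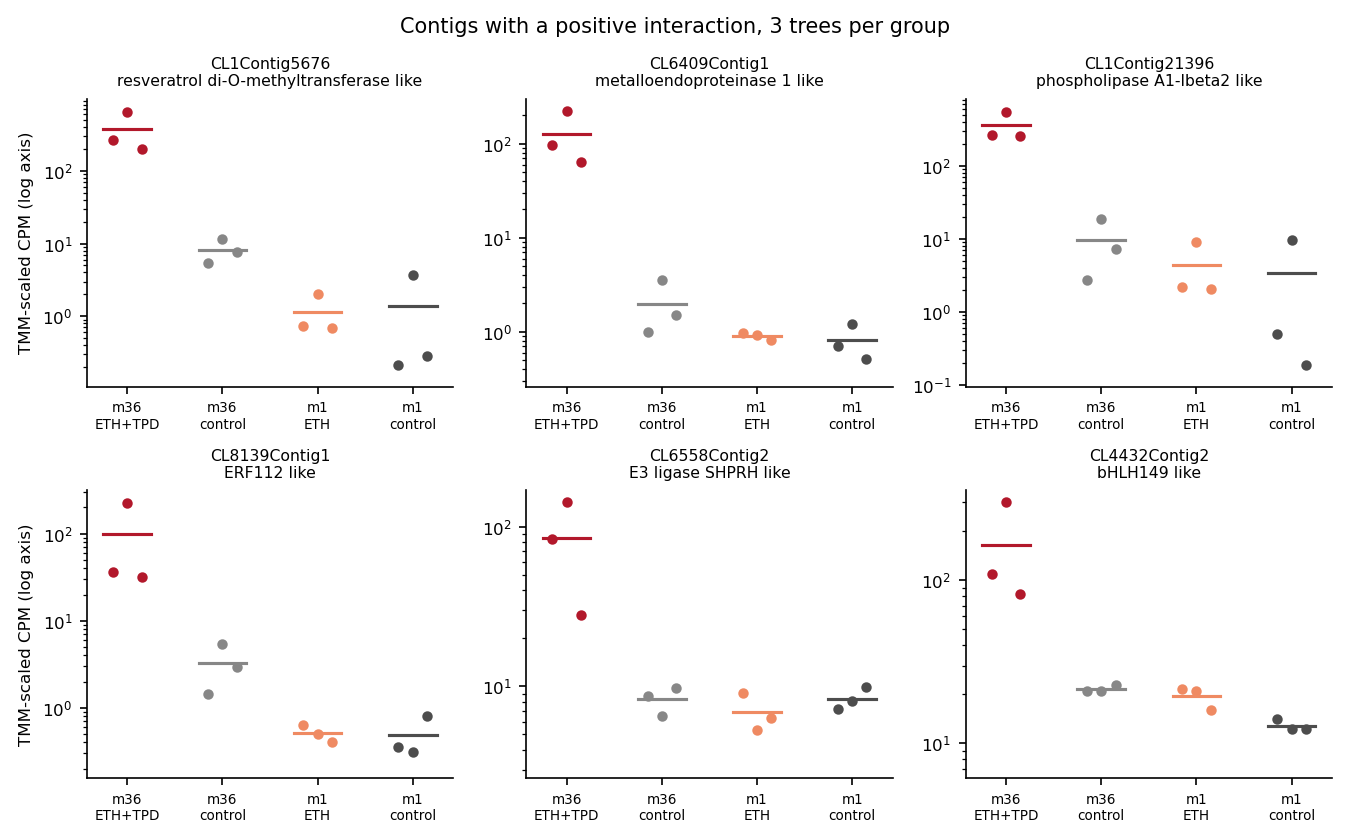
CPM scaled by TMM (vertical log axis) in each tree (points) and the mean of each group (bars) for 6 contigs with a positive interaction, with the groups from left to right month 36 ethephon with TPD, month 36 control, month 1 ethephon and month 1 control. In all 6 panels the 3 month 36 ethephon trees with TPD lie above the other 9 trees.

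Among contigs of lipid release and jasmonate synthesis, CL1Contig21396 is annotated as phospholipase A1-Ibeta2, a plastid lipase that frees fatty acids from membrane lipids. It had 261, 549 and 254 CPM in month 36 ethephon trees with TPD, against 2.75, 18.7 and 7.19 CPM in month 36 controls. At month 1 ethephon trees had 2.22, 9.06 and 2.03 CPM, against 0.499, 9.49 and 0.189 CPM in controls, so that replicate 2 was the high one in both month 1 groups. The interaction was 4.92 ± 1.38 (adjusted p = 0.0462). The call was lost in 8 of the 12 fits without 1 tree, with a value of 1.49 (adjusted p = 0.562) without month 1 control replicate 2. It was lost as well with the DESeq2 Wald test and when 1 CPM in 3 libraries was enough. The other tested member, the lipoxygenase 6 contig CL1554Contig7, had an interaction of -0.32 (adjusted p = 0.648). It had 2.61, 2.88 and 1.52 CPM in month 36 ethephon trees with TPD, against 3.58, 2.49 and 2.59 CPM in month 36 controls. Lipoxygenases add oxygen to the freed fatty acid, and allene oxide synthase and cyclase then carry the product towards jasmonate. The allene oxide synthase contig CL1Contig911 was below the filter, with 1.8, 11.2 and 2.68 CPM in month 36 ethephon trees with TPD, against 0.57, 1.59 and 0.647 CPM in month 36 controls. It had at most 0.193 CPM in the 6 month 1 libraries. The allene oxide cyclase contig CL10285Contig1, also below the filter, had 2.01, 1.81 and 2.01 CPM in month 36 ethephon trees with TPD, against 0.622, 0.765 and 0.518 CPM in month 36 controls. Its month 1 values were 0.387, 0.212 and 0.174 CPM in ethephon trees, against 0.0712, 0.177 and 0.0473 CPM in controls. The remaining members CL1554Contig5 and CL1Contig709 stayed at or below 0.207 CPM in every library. Of the 6 members of the list, 1 was thus called, 1 was tested and not called, and 4 were not tested.

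Ethylene and other hormone regulators were represented by 6 tested contigs, of which 3 had a positive interaction. This compares with 2.72% of all tested contigs and 9.79% of the annotated ones. In the fits without 1 tree the count was 0 to 2. ERF112, the first of the 3, also belongs to the PB260 set and passed the filter only with the dry trees. CL8139Contig1, annotated as the ethylene-responsive transcription factor ERF112, had 36.7, 226 and 31.6 CPM in month 36 ethephon trees with TPD, against 1.45, 5.42 and 2.98 CPM in month 36 controls. At month 1 it had 0.628, 0.495 and 0.406 CPM in ethephon trees, against 0.356, 0.31 and 0.804 CPM in controls. Replicate 2 of the dry trees was the highest by far, and the other dry trees still lay above all remaining libraries. The interaction was 4.87 ± 1.32 (adjusted p = 0.0412). It was lost in all 6 fits without 1 tree in which the contig passed the filter, with an adjusted p of up to 0.165 without month 1 control replicate 3. CL10836Contig1, annotated as the auxin transport protein BIG, had a different profile, as its controls at month 1 were high. It had 6.68, 13.6 and 6.25 CPM in month 36 ethephon trees with TPD, against 4.77, 5.03 and 3.43 CPM in month 36 controls. In month 1 ethephon trees it had 5.22, 7 and 8.69 CPM, against 9.12, 17.8 and 11.2 CPM in month 1 controls. Its interaction was 1.88 ± 0.47 (adjusted p = 0.0316), lost in 8 of 12 fits without 1 tree (up to 0.0862 without month 1 control replicate 2). CL10676Contig1, annotated as the dehydration-responsive element-binding protein 2C, a transcription factor of drought and heat responses in Arabidopsis, had an interaction of 1.17 ± 0.33 (adjusted p = 0.0474). It was lost in 11 of 12 fits without 1 tree, with an adjusted p of up to 0.126 without month 1 control replicate 2. The phytosulfokine precursor contig CL1023Contig1, which encodes a peptide hormone, was the most counted of the list and had an interaction of -1.30 that was not called (adjusted p = 0.0569). The phosphorelay contig CL104Contig16, a carrier of cytokinin signals, had -1.15 (adjusted p = 0.264).

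Of 13 tested contigs for ubiquitination and proteolysis, 3 had a positive and 0 a negative interaction. This compares with 2.72% and 4.87% of all tested contigs, and with 9.79% and 2.55% of the annotated ones. The 3 were metalloendoproteinase 1 and 2 ubiquitin ligases, enzymes that mark proteins for degradation. All 3 also belong to the PB260 set, and metalloendoproteinase 1 passed the filter only with the dry trees. CL6558Contig2, annotated as the ligase SHPRH, had 83.4, 143 and 27.9 CPM in month 36 ethephon trees with TPD, against 8.71, 6.56 and 9.71 CPM in month 36 controls. At month 1 it had 9.08, 5.31 and 6.32 CPM in ethephon trees, against 7.19, 8.12 and 9.84 CPM in controls. Hence the 9 trees outside the dry group lay within a range of 5.31 to 9.84 CPM. Its interaction was 3.62 ± 0.61 (adjusted p = 0.00968), called in every fit tried. CL24458Contig1, annotated as a RING1 ligase, had 13.6, 35 and 7.05 CPM in month 36 ethephon trees with TPD, against 0.311, 1.15 and 0.777 CPM in month 36 controls. In month 1 ethephon trees it had 1.01, 1.63 and 1.45 CPM, against 0.855, 1.11 and 0.852 CPM in month 1 controls. The interaction of 4.16 ± 0.82 (adjusted p = 0.0152) was also called in every fit tried. The most counted contig of this list, the PHD and F-box contig CL1078Contig5, had -0.39 (adjusted p = 0.3).

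Transcription factors numbered 23 tested contigs, with 5 positive and 1 negative interaction, beside 2.72% and 4.87% of all tested contigs, so that the negative share of 4.35% was near the background. Among the annotated contigs the shares were 9.79% and 2.55%. Besides ERF112 and DREB2C, the positive ones were basic helix-loop-helix factors. All of the positive ones except DREB2C also belong to the PB260 set. CL4432Contig1, annotated as bHLH149, had 18, 16.1 and 5.67 CPM in month 36 ethephon trees with TPD, against 1.24, 1.34 and 1.04 CPM in month 36 controls. It had 1.74, 1.42 and 1.16 CPM in month 1 ethephon trees, against 1.14, 1.02 and 0.804 CPM in month 1 controls. The interaction was 2.89 ± 0.57 (adjusted p = 0.0152) and was called in every fit tried. CL4432Contig2 carries the same annotation and may belong to the same gene. It had 109, 303 and 82.4 CPM in month 36 ethephon trees with TPD, against 20.8, 20.9 and 22.8 CPM in month 36 controls. Its month 1 values were 21.5, 20.9 and 16 CPM in ethephon trees, against 14, 12.2 and 12.2 CPM in controls, and here too the ethephon trees lay above the controls. The interaction was 2.33 ± 0.51 (adjusted p = 0.0219), lost in 5 of 12 fits without 1 tree (up to 0.0597 without month 1 ethephon replicate 3). CL1Contig10832, annotated as bHLH147, had 253 to 438 CPM in month 36 ethephon trees with TPD, against 54, 66 and 97.4 CPM in month 36 controls. In month 1 ethephon trees it had 50, 77 and 52.7 CPM, against 36.9, 44 and 30.2 CPM in month 1 controls, with no overlap. It was therefore a contig with a positive contrast at both months, 2.20 at month 36 and 0.69 at month 1 (not called there), and an interaction of 1.51 ± 0.38 (adjusted p = 0.0337). The call was lost in 7 of 12 fits without 1 tree, with an adjusted p of up to 0.0878 without month 1 control replicate 2. The homeobox contigs CL1071Contig3 and CL1071Contig1, among the most counted of the list, had 0.76 (adjusted p = 0.111) and -0.14 (adjusted p = 0.803).

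Kinases and phosphatases numbered 17 tested contigs, of which 3 had a positive interaction, beside 2.72% of all tested contigs and 9.79% of the annotated ones. A pair of these contigs carried the annotation protein phosphatase 2C 10 and may be parts of the same gene. Both also belong to the PB260 set. Some members of the protein phosphatase 2C family restrain abscisic acid signalling, and whether these 2 contigs encode such members was not tested. CL1Contig14251 had 10.5, 34.7 and 9.51 CPM in month 36 ethephon trees with TPD, against 2.33, 2.42 and 3.3 CPM in month 36 controls. At month 1 it had 1.35, 1.06 and 2.03 CPM in ethephon trees, against 2.14, 1.64 and 2.79 CPM in controls. Its interaction was 3.32 ± 0.66 (adjusted p = 0.016), called in every fit tried. CL1Contig4306 had an interaction of 2.65 ± 0.57 (adjusted p = 0.021), lost in 3 of 12 fits without 1 tree (up to 0.0538 without month 1 control replicate 3). The cyclin-dependent kinase contig CL1027Contig7 had 10.1, 9.33 and 7.1 CPM in month 36 ethephon trees with TPD, against 3.47, 3.51 and 3.82 CPM in month 36 controls, and between 3.26 and 5.02 CPM in the month 1 libraries. Its interaction was 1.16 ± 0.31 (adjusted p = 0.0384), lost in 10 of 12 fits without 1 tree (up to 0.0894 without month 1 ethephon replicate 3). The contig CL1Contig16293, annotated as the WNK4 kinase, was called higher at month 36 but not in the interaction. It had 39.1, 282 and 30.8 CPM in month 36 ethephon trees with TPD, against 1.45, 5.8 and 2.4 CPM in month 36 controls, and at most 0.425 CPM at month 1. With so few pairs at month 1 its interaction of 4.42 had a standard error of 1.98 (adjusted p = 0.162). The casein kinase II contigs CL1084Contig3 and CL1084Contig2 had -0.59 (adjusted p = 0.239) and -0.45 (adjusted p = 0.418).

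Redox contigs include enzymes that make, use or remove reactive oxygen and its products. Of 11 tested, 9 were called higher at month 36, 0 at month 1, and 2 had a positive interaction, beside 10.6% of all tested contigs called higher at month 36 and 2.72% positive in the interaction. Of the annotated contigs, 9.79% were positive in the interaction. CL11218Contig1, annotated as aldo-keto reductase 4C9, an enzyme that reduces aldehydes, had 65, 173 and 9.15 CPM in month 36 ethephon trees with TPD, against 0.466, 1.72 and 2.78 CPM in month 36 controls. It had 1.11, 1.63 and 1.16 CPM in month 1 ethephon trees, against 0.285, 1.42 and 0.662 CPM in month 1 controls. The interaction was 5.05 ± 1.32 (adjusted p = 0.0371), lost in 8 of 12 fits without 1 tree (up to 0.152 without month 1 control replicate 2). The tropinone reductase contig CL1028Contig8 had 1.71 ± 0.40 (adjusted p = 0.0258), lost in 7 of 12 such fits (up to 0.073 without month 1 control replicate 2). The contig CL1032Contig2 for GDP-L-galactose phosphorylase, a committed enzyme of ascorbate synthesis, had 79.5, 139 and 63.2 CPM in month 36 ethephon trees with TPD, against 40.3, 44.5 and 46 CPM in month 36 controls. In month 1 ethephon trees it had 57.2, 41.6 and 54.3 CPM, against 51.3, 55.1 and 50.8 CPM in month 1 controls. Its interaction of 1.14 was not called (adjusted p = 0.0559), nor was the 1.24 of its companion CL1032Contig9 (adjusted p = 0.101).

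Smaller positive interactions were found for single contigs of other groups, whose counts of 1 or 2 are too few to set against the 2.72% of all tested contigs. The cell wall list had 1 among 7 tested contigs, CL20361Contig1, annotated as expansin-A4, a wall-loosening protein, with 5.61, 20.3 and 7.95 CPM in month 36 ethephon trees with TPD, against 3.01, 2.42 and 2.91 CPM in month 36 controls, and an interaction of 2.004 ± 0.568 (adjusted p = 0.0474). It was lost in 10 of 12 fits without 1 tree, with an adjusted p of up to 0.112 without month 1 control replicate 2. In the same list the beta-galactosidase contig CL101Contig18 had -0.86 (adjusted p = 0.135) and the phosphofructokinase contig CL10416Contig1 had 1.62 (adjusted p = 0.0783). Of 18 transporters, CL10882Contig1, a WAT1-related protein, had 1.96 ± 0.42 (adjusted p = 0.021), lost in 4 of 12 fits without 1 tree (up to 0.0583 without month 1 control replicate 2). Of 18 contigs for RNA and translation, the mitochondrial ribosomal protein L47 contig CL10340Contig1 had 24.3, 32.4 and 18.8 CPM in month 36 ethephon trees with TPD, against 9.69, 10.7 and 10.8 CPM in month 36 controls. All 6 of its month 1 values lay between 9.91 and 11.1 CPM. The interaction was 1.33 ± 0.27 (adjusted p = 0.0167), lost only without month 1 ethephon replicate 3 (0.0503). The ribosomal protein L38 contig CL102Contig4 had 1.02 ± 0.26 (adjusted p = 0.0338), lost in 9 of 12 fits without 1 tree (up to 0.0846 without month 1 ethephon replicate 3). CL10521Contig1, annotated as the Fanconi anemia group I protein, a DNA repair factor in animals, had 0.856, 1.47 and 1.29 CPM in month 36 ethephon trees with TPD, against 0.466, 0.191 and 0.647 CPM in month 36 controls. Its month 1 values were 0.966, 0.991 and 1.33 CPM in ethephon trees, against 1.71, 1.33 and 1.8 CPM in controls, so the dry trees overlapped both month 1 groups. The interaction was 2.01 ± 0.51 (adjusted p = 0.033), lost in 8 of 12 fits without 1 tree (up to 0.0769 without month 1 control replicate 3) and with the DESeq2 Wald test. No interaction was called among 7 chaperone, 7 defence and 14 pentatricopeptide repeat contigs, whose medians were 0.36, 0.80 and -0.01, against 0.02 over all tested contigs. With 7.59% of all tested contigs called in either direction, 0 calls in groups of this size is near the background.

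The annotated contigs with a negative interaction included a pair for squalene epoxidase. Squalene epoxidase oxidises squalene at the entry to sterols, a branch that draws on the same precursors as rubber. CL1037Contig4 had 11.6, 21.7 and 18.3 CPM in month 36 ethephon trees with TPD, against 29.5, 25.9 and 30.4 CPM in month 36 controls. Among month 1 trees it had 43.3, 33.6 and 38 CPM with ethephon, against 24.8, 30.7 and 30.8 CPM in controls. Ethephon trees thus lay below controls at month 36 and above them at month 1, without overlap at either month, although the month 1 contrast of 0.41 was not called. The interaction was -1.14 ± 0.30 (adjusted p = 0.0358). It was lost in 9 of 12 fits without 1 tree (up to 0.0757 without month 1 control replicate 2), and with library totals (-0.56, adjusted p = 0.272). CL1037Contig1, which carries the same annotation and may belong to the same gene, had -1.15 ± 0.32 (adjusted p = 0.0423). That call was lost in 10 of 12 such fits (up to 0.0893 without month 1 control replicate 2) and with library totals. The terpene synthase contig CL10436Contig1, the only other tested member of the 11 isoprenoid contigs, had -0.39 (adjusted p = 0.706). The HMG-CoA reductase 3 contig CL5369Contig2, for an early enzyme of the mevalonate route to rubber, was below the filter. It had 1.8, 3.35 and 0.58 CPM in month 36 ethephon trees with TPD, against 0.259, 0.446 and 0.129 CPM in month 36 controls, and at most 0.406 CPM at month 1. The other 7 members were not tested, and none of these exceeded 1.17 CPM in any library.

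**Figure D4:**
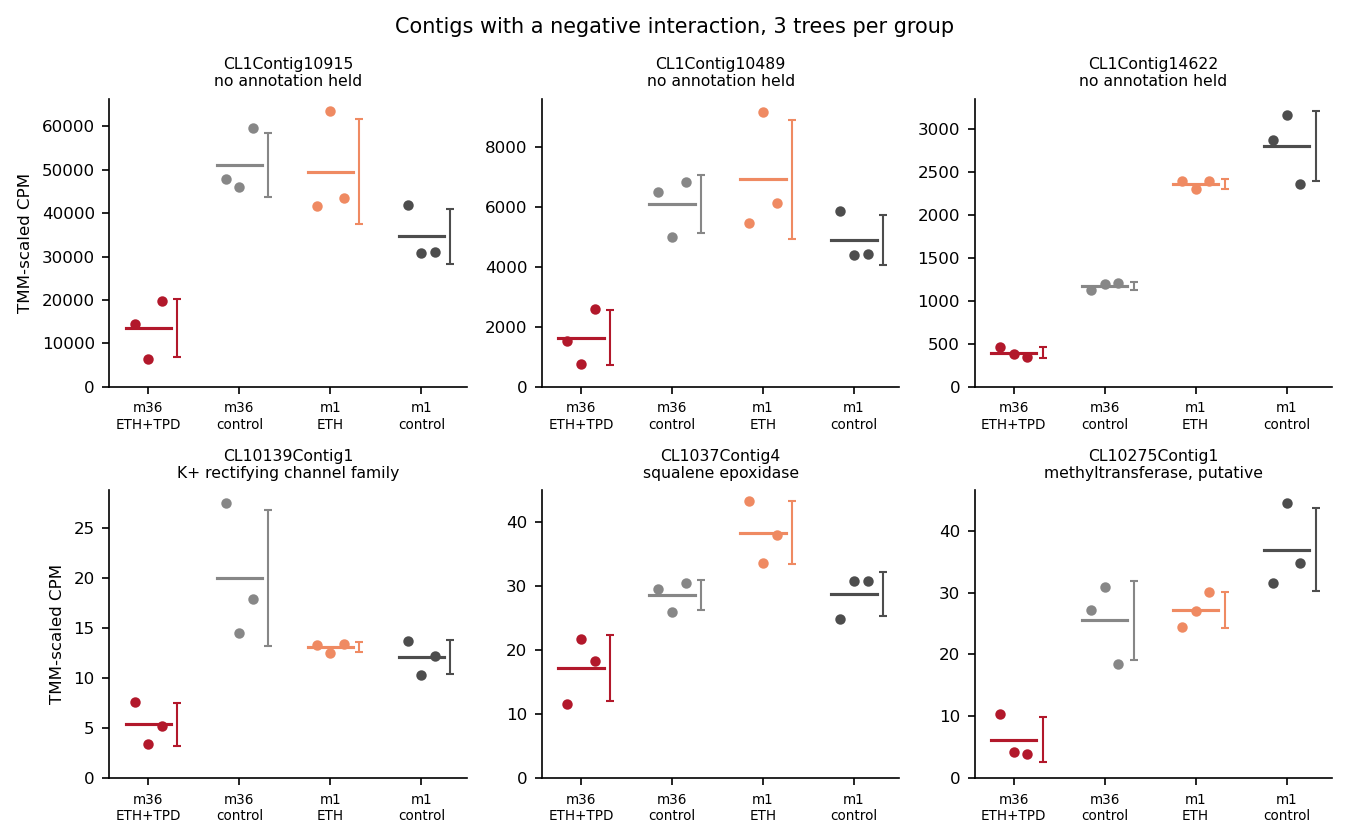
CPM scaled by TMM (vertical axis from 0) in each tree (points), with the mean (horizontal bar) and SD (error bar, n = 3) of each group, for 6 contigs with a negative interaction, with the groups from left to right month 36 ethephon with TPD, month 36 control, month 1 ethephon and month 1 control. The 3 month 36 ethephon trees with TPD are the lowest in every panel, and CL1037Contig4 is higher with ethephon than without at month 1.

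A contig of the K+ rectifying channel family, CL10139Contig1, had the most negative interaction among the called annotated contigs. It had 7.62, 3.38 and 5.18 CPM in month 36 ethephon trees with TPD, against 27.5, 14.5 and 17.9 CPM in month 36 controls. At month 1 it had 13.3, 12.5 and 13.4 CPM in ethephon trees, against 13.7, 10.3 and 12.2 CPM in controls. Its interaction was -2.02 ± 0.40 (adjusted p = 0.0152), called in every fit tried. The methyltransferase contig CL10275Contig1 had 10.4, 4.28 and 3.93 CPM in month 36 ethephon trees with TPD, against 27.1, 30.9 and 18.5 CPM in month 36 controls. Among month 1 trees it had 24.4, 27 and 30.1 CPM with ethephon, against 31.6, 44.4 and 34.8 CPM in controls, so that ethephon trees were the lower ones at both months. Its interaction was -1.60 ± 0.44 (adjusted p = 0.0436), lost in 10 of 12 fits without 1 tree (up to 0.0988 without month 36 control replicate 2) and with library totals. The acyl carrier protein contig CL103Contig4, a cofactor of plastid fatty acid synthesis, had -1.02 ± 0.29 (adjusted p = 0.047), lost in 10 of 12 fits (up to 0.117 without month 1 control replicate 2) and with library totals. The contig CL1076Contig6, a NF-Y subunit B that binds CCAAT boxes, had -1.09 ± 0.31 (adjusted p = 0.0488), lost in 11 of 12 fits (up to 0.12 without month 1 control replicate 3) and with library totals. It was not called in either contrast alone, at -0.56 for month 36 and 0.53 for month 1. The elongation factor contig CL1031Contig4 followed with -0.97, which was not called (adjusted p = 0.0622).

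The most counted contigs with a negative interaction had no annotation among those held here. CL1Contig10915 was one of the most abundant contigs of all libraries. It had 14539, 6361 and 19712 CPM in month 36 ethephon trees with TPD, against 47804, 45970 and 59596 CPM in month 36 controls. The month 1 values with ethephon were 41557, 63430 and 43469 CPM, against 41875, 30900 and 31100 CPM in month 1 controls. The dry trees lay below all others, and the month 1 groups overlapped. The interaction was -2.43 ± 0.60 (adjusted p = 0.0306), lost in 8 of 12 fits without 1 tree (up to 0.0868 without month 1 control replicate 2). CL1Contig10489 followed the same order, with 1526, 775 and 2601 CPM in month 36 ethephon trees with TPD, against 6511, 5020 and 6839 CPM in month 36 controls, and an interaction of -2.40 ± 0.55 (adjusted p = 0.0235). The call was lost in 5 of 12 fits (up to 0.0682 without month 1 control replicate 2). CL1Contig19501 had 1272, 1301 and 2624 CPM in month 36 ethephon trees with TPD, against 3746, 4247 and 5731 CPM in month 36 controls, which were the highest group. Month 1 ethephon trees had 1092, 1779 and 1451 CPM, against 1289, 820 and 872 CPM in month 1 controls. Its interaction was -1.94 ± 0.47 (adjusted p = 0.029), lost in 7 of 12 fits (up to 0.0822 without month 1 control replicate 2). CL26Contig8 had a similar profile and an interaction of -1.52 ± 0.39 (adjusted p = 0.0363), lost in 8 of 12 fits (up to 0.0908 without month 1 control replicate 2). CL1Contig14622 was lower at month 36 than at month 1 in both groups. It had 464, 382 and 347 CPM in month 36 ethephon trees with TPD, against 1120, 1194 and 1211 CPM in month 36 controls. Its month 1 values were 2396, 2294 and 2389 CPM in ethephon trees, against 2869, 3163 and 2361 CPM in controls. The interaction was -1.32 ± 0.30 (adjusted p = 0.0242), lost in 5 of 12 fits (up to 0.066 without month 1 control replicate 3) and with library totals.

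The largest interactions among contigs without annotation were of both kinds. CL3284Contig3 had 167, 381 and 41.7 CPM in month 36 ethephon trees with TPD, against 7.57, 9.05 and 7.06 CPM in month 36 controls, and 6.51 to 14.5 CPM at month 1. Its interaction of 5.07 ± 0.78 (adjusted p = 0.0083) was called in every fit tried. CL1Contig11750 and CL34016Contig1 had 4.38 ± 1.21 (adjusted p = 0.0439) and 4.36 ± 1.14 (adjusted p = 0.0373). The first was lost in 9 of 12 fits without 1 tree (up to 0.122 without month 1 control replicate 3), and the second in all 6 fits in which it passed the filter (up to 0.107 without month 1 control replicate 2). CL1Contig11750 was lost with the DESeq2 Wald test as well. On the negative side CL715Contig3 had 7.32, 4.28 and 6.47 CPM in month 36 ethephon trees with TPD, against 23.4, 136 and 45.1 CPM in month 36 controls, and 3.41 to 5.73 CPM at month 1. In this contig the month 36 controls were the group that stood out, and the dry trees were near the level of the month 1 trees. Its interaction was -3.84 ± 0.68 (adjusted p = 0.0111), called in every fit tried. CL1Contig3377 had 1.24, 0.803 and 1.07 CPM in month 36 ethephon trees with TPD, against 6.48, 18.4 and 7.51 CPM in month 36 controls. The month 1 values with ethephon were 5.27, 5.16 and 6.43 CPM, against 3.77, 5.01 and 5.49 CPM in month 1 controls, so here the dry trees were the low group. Its interaction was -3.61 ± 0.51 (adjusted p = 0.00781), also called in every fit tried. CL1Contig2082 had -3.47 ± 0.72 (adjusted p = 0.0186), lost in 3 of 12 fits without 1 tree (up to 0.0538 without month 1 control replicate 2).

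The most counted contigs with a positive interaction had smaller changes. CL9478Contig1 had 301, 851 and 340 CPM in month 36 ethephon trees with TPD, against 69.8, 167 and 106 CPM in month 36 controls. Month 1 ethephon trees had 56.1, 102 and 89.1 CPM, against 172, 113 and 115 CPM in month 1 controls, the ethephon trees being the lower ones. Its interaction was 2.82 ± 0.57 (adjusted p = 0.0171) and was called in every fit tried. CL5157Contig2 had 72.9, 90.5 and 139 CPM in month 36 ethephon trees with TPD, against 39.9, 45.4 and 42.1 CPM in month 36 controls. Among month 1 trees it had 339, 321 and 362 CPM with ethephon, against 485, 333 and 432 CPM in controls, so it was far lower at month 36 in both groups. The interaction was 1.54 ± 0.33 (adjusted p = 0.0199), lost in 2 of 12 fits without 1 tree (up to 0.0502 without month 36 control replicate 3). The other 3 of these contigs had interactions between 0.86 and 1.03. They were CL1Contig21362 (adjusted p = 0.0327, up to 0.0773 without month 1 control replicate 3), CL1Contig15953 (adjusted p = 0.0412, up to 0.104 without month 1 control replicate 2) and CL1Contig6866 (adjusted p = 0.0498, up to 0.109 without month 36 control replicate 3). They were lost in 9, 9 and 11 of 12 fits without 1 tree. Of the 8 other alternatives, only 3 called CL1Contig6866.

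A further set was defined outside these 12 libraries. The study tabulated contigs that differed with ethephon in trees of another clone, PB260, which were slightly affected by TPD and whose libraries were not used here. The titles of the PB260 libraries carry the fields S and D2 where those of PB217 carry T and D1. Of that table, ordered by fold change, only the 173 contigs at the top were held, all higher with ethephon, so the set is what could be read and not one the study defined, and its shares are a description. Of these, 32 passed the filter in PB217. At month 36 28 of the 32 were called higher in ethephon trees with TPD and 0 lower, beside 10.6% of all tested contigs. In the interaction 19 were positive and 0 negative, that is 59.4% beside the 2.72% of all tested contigs. Some of the 32, among them CL6409Contig1 and CL8139Contig1, passed the filter only with the dry trees, where they were high. These shares at month 36 and in the interaction therefore support nothing about the list. None of the 32 was called at month 1, where their log2 fold changes ranged between -1.36 and 1.75. Their median was 2.83 in the interaction, 2.99 at month 36 and 0.14 at month 1, against 0.02, 0.01 and -0.01 over all tested contigs. Several of the 32 share an annotation or a contig cluster, so they are not 32 separate genes. The 14 annotated ones among the 19 include metalloendoproteinase 1, both bHLH149 and both protein phosphatase 2C contigs. Without replicate 2 of the month 36 ethephon trees with TPD, 15 of the 26 members then tested were positive, and the count went down to 8 of 30 without month 1 control replicate 2. It was 10 of 31 without month 1 control replicate 3, 11 of 31 without month 1 ethephon replicate 3 and 11 of 27 without month 36 control replicate 2.

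**Figure D5:**
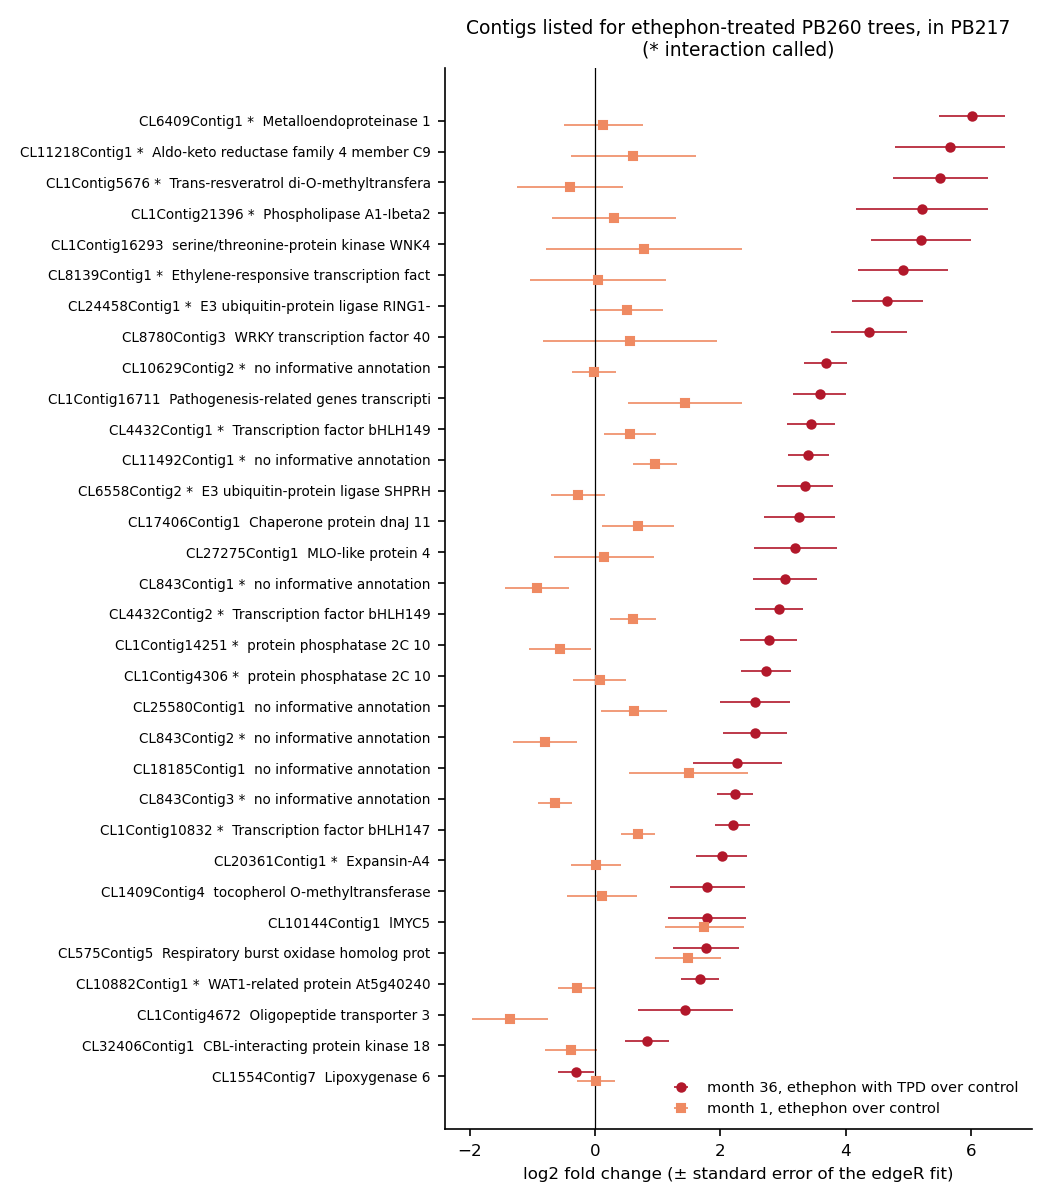
Log2 fold change with its standard error (horizontal axis) at month 36 (red circles, ethephon with TPD over control) and at month 1 (orange squares, ethephon over control) for the 32 tested contigs from the held part of the study's table for ethephon-treated PB260 trees, with an asterisk where the interaction was called. At month 36 31 of the 32 values are above 0, beside 14092 of all 27691 tested contigs. Some of the 32 passed the filter only with the month 36 ethephon trees with TPD, so this share is a description. At month 1 22 of the 32 are above 0, beside 13544 of all tested contigs.

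The members of that list without an informative annotation included 5 contigs with a positive interaction. CL10629Contig2 had 102, 162 and 70.8 CPM in month 36 ethephon trees with TPD, against 6.84, 10.3 and 9 CPM in month 36 controls. Month 1 ethephon trees had 2.95, 5.52 and 2.84 CPM, against 4.27, 2.66 and 4.4 CPM in month 1 controls. Its interaction was 3.69 ± 0.48 (adjusted p = 0.00781), called in every fit tried, as was the 2.44 ± 0.47 of CL11492Contig1 (adjusted p = 0.0142). The 3 contigs of cluster CL843 had 3.96 ± 0.72 (CL843Contig1, adjusted p = 0.0124), 3.35 ± 0.72 (CL843Contig2, adjusted p = 0.0207) and 2.87 ± 0.39 (CL843Contig3, adjusted p = 0.00781). CL843Contig3 had 197, 291 and 145 CPM in month 36 ethephon trees with TPD, against 45.4, 43 and 45.8 CPM in month 36 controls. Among month 1 trees it had 46.8, 37.8 and 61.4 CPM with ethephon, against 51.2, 80.2 and 95.3 CPM in controls. CL843Contig2 lost its call without month 1 control replicate 3 (0.0555). CL843Contig3 kept it in all 12 fits without 1 tree, and CL843Contig1 kept it in the 6 in which it passed the filter. None of those 6 left out a dry tree. Of the 141 members that did not pass the filter, 135 had their highest group mean in the month 36 ethephon trees with TPD. That share was not counted over all contigs below the filter, so the 135 are a description and no result about the list. At least 1 CPM was reached in all 3 dry trees by 64 of the 141 members, 45 of which reached it in no other library. The shares of these 64 and 45 were not counted over all contigs below the filter either, so they too are a description. A further 22 reached it in no library at all. An example is the sigma factor binding protein 1 contig CL16849Contig1, for a plastid protein of defence responses in Arabidopsis. It had 22, 55.5 and 7.46 CPM in month 36 ethephon trees with TPD, against 0, 0.319 and 0.194 CPM in month 36 controls, and at most 0.522 CPM at month 1. The flavonoid glucosyltransferase contig CL8299Contig1 had 9.51, 41.5 and 4.78 CPM in month 36 ethephon trees with TPD, against 0.259, 0.382 and 0.518 CPM in month 36 controls, and at most 0.0443 CPM at month 1. The filter thus left out contigs that reached 1 CPM in all 3 dry trees and in no other library. There were 329 of these among all 2918 contigs that reached 1 CPM in 3 to 5 libraries. The same count for the other groups was not made.

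Some tested members of the PB260 set had an ethephon contrast of the same sign at both months and no called interaction. The transcription factor lMYC5 (CL10144Contig1), a latex MYC factor of the family that carries jasmonate signals, had 239, 343 and 217 CPM in month 36 ethephon trees with TPD, against 59.3, 95.2 and 76.8 CPM in month 36 controls. Month 1 ethephon trees had 64.8, 95 and 55.2 CPM, against 9.83, 50.2 and 3.64 CPM in month 1 controls. Ethephon trees lay above controls at both months without overlap, with contrasts of 1.79 at month 36 (adjusted p = 0.052) and 1.75 at month 1 (unadjusted p = 0.0151). The interaction was 0.04 ± 0.87 (adjusted p = 0.981), and it became -1.64 (adjusted p = 0.0992) without month 1 control replicate 2, the highest of the month 1 controls. The contig CL575Contig5, annotated as a respiratory burst oxidase, an enzyme that makes superoxide at the plasma membrane, was chosen after its values were seen. It had 4.75, 14.9 and 7.72 CPM in month 36 ethephon trees with TPD, against 1.97, 3.19 and 2.91 CPM in month 36 controls. Its month 1 values were 8.07, 4.39 and 5.33 CPM in ethephon trees, against 0.712, 4.17 and 1.28 CPM in controls. Its contrasts were 1.77 (adjusted p = 0.0257) at month 36 and 1.49 at month 1 (unadjusted p = 0.0137), and its interaction was 0.28 ± 0.74 (adjusted p = 0.826). The PTI6 contig CL1Contig16711, a defence regulator of the ERF family in tomato, had 40.6, 113 and 29.6 CPM in month 36 ethephon trees with TPD, against 3.42, 6.44 and 5.44 CPM in month 36 controls. Month 1 ethephon trees had 0.338, 0.495 and 0.348 CPM, against 0.142, 0.0887 and 0.189 CPM in month 1 controls. It was called higher at month 36 (3.59, adjusted p = 0.000396), and its interaction had a standard error of 1.15 and was not called (adjusted p = 0.233).

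The other latex markers and the contigs the study named showed no called interaction. HbTCTP1, a translationally controlled tumour protein homologue, had 2085, 1504 and 3209 CPM for CL1Contig7138 in month 36 ethephon trees with TPD, against 2880, 2929 and 3308 CPM in month 36 controls. Among month 1 trees it had 1585, 3011 and 1878 CPM with ethephon, against 2375, 1482 and 1326 CPM in controls. Its interaction was -0.74 ± 0.47 (adjusted p = 0.315), and that of the second HbTCTP1 contig, CL1Contig21026, was 0.08 ± 0.54 (adjusted p = 0.937). The latex allergen Hev b 4 (CL10238Contig1) had 5.22, 0.77 and 9.11 CPM in month 36 ethephon trees with TPD, against 8.65, 20 and 9.84 CPM in month 36 controls. The month 1 values with ethephon were 39.5, 42.1 and 17.1 CPM, against 18.1, 14.3 and 5.01 CPM in month 1 controls. Its interaction of -2.77 ± 0.91 was not called (adjusted p = 0.075), and its lowest value was in replicate 2 of the dry trees, the library that stood apart. The HbTOM20 contigs CL1183Contig1 and CL1183Contig4 did not exceed 0.427 CPM in any library, and the HbERF-IIb2 contig CL17512Contig1 had a pair in only 1 library, at 0.0335 CPM, so none of these could be tested. The part of these marker levels in the results above was not tested.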

How the data were processed

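The 12 PB217 libraries were stranded poly(A) TruSeq libraries of latex RNA, sequenced as paired ends. The authors deposited raw counts of read pairs per contig. According to the study's methods, given for PB260, reads were trimmed, freed of ribosomal sequence and aligned with Bowtie2 to the PB260 transcriptome; the submitters' processing notes also name TopHat2. Pairs with both mates on one contig were counted and multi-hits removed, so similar contigs may lose pairs, and reads of PB217 met contigs of another clone.

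Counts were joined by contig, and contigs at 1 CPM in at least 6 of 12 libraries (27691) were fitted in edgeR 4.0.16 (R 4.3.3) with TMM scaling, 1 mean per group and the quasi-likelihood F test, with a prior count of 0.125. P-values were Benjamini-Hochberg adjusted over all tested contigs, and calls used 0.05. The study's exact test has no interaction term. The standard error is the log2 fold change divided by the root of F. CPM values are TMM-scaled. The scripts were tested on simulated counts. Depth was 16694058 to 23126417 pairs, where 1 pair equals 0.0432 to 0.0599 CPM.

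Annotations covered 835 contigs from the part of the study's supplementary tables that was held. Lists were drawn from them by keyword, and members and lists were chosen with earlier results of these data known. Named were the 12 annotated contigs called with the largest interaction in each direction (filled to 8 with uncalled ones), the 5 most counted called contigs and the 3 largest without annotation in each direction, all members of the jasmonate, isoprenoid, latex marker and study-named lists, and in each other list the 3 most counted members and every called one. No replicate pair was identical, and their counts differed by 9.25 to 124 times the sampling variance. Replicate numbers were not used to pair the trees in the reported fit. Alternatives were DESeq2 1.42.0 size factors and Wald test, the likelihood ratio test, a robust fit, other filters, a replicate block, each tree left out, each month fitted alone and, chosen after seeing the data, library totals in place of TMM.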

Additional observations from a re-analysis of the deposited data

Results flagged for a closer look

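Each value here is an interaction, the ethephon contrast at month 36 with TPD minus that at month 1, and each passed the edgeR quasi-likelihood test of that difference at an adjusted p under 0.05. In all, 752 contigs were positive and 1349 negative.

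Among annotated contigs with a positive value, those for metabolism and proteolysis were CL1Contig5676 at 5.91, CL6409Contig1 at 5.89, CL11218Contig1 at 5.05, CL1Contig21396 at 4.92, CL24458Contig1 at 4.16, CL6558Contig2 at 3.62 and CL1028Contig8 at 1.71. The regulators were CL8139Contig1 at 4.87, CL1Contig14251 at 3.32, CL4432Contig1 at 2.89, CL1Contig4306 at 2.65, CL4432Contig2 at 2.33, CL10836Contig1 at 1.88, CL1Contig10832 at 1.51, CL10676Contig1 at 1.17 and CL1027Contig7 at 1.16. The remaining ones were CL10521Contig1 at 2.01, CL20361Contig1 at 2.004, CL10882Contig1 at 1.96, CL10340Contig1 at 1.33 and CL102Contig4 at 1.02.

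Without an informative annotation, the positive values were 5.07 for CL3284Contig3, 4.38 for CL1Contig11750, 4.36 for CL34016Contig1, 3.96 for CL843Contig1, 3.69 for CL10629Contig2, 3.35 for CL843Contig2, 2.87 for CL843Contig3, 2.82 for CL9478Contig1, 2.44 for CL11492Contig1, 1.54 for CL5157Contig2, 1.03 for CL1Contig21362, 0.98 for CL1Contig15953 and 0.86 for CL1Contig6866.

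The negative values of annotated contigs were -2.02 for CL10139Contig1, -1.60 for CL10275Contig1, -1.15 for CL1037Contig1, -1.14 for CL1037Contig4, -1.09 for CL1076Contig6 and -1.02 for CL103Contig4. Those of contigs without annotation were -3.84 for CL715Contig3, -3.61 for CL1Contig3377, -3.47 for CL1Contig2082, -2.43 for CL1Contig10915, -2.40 for CL1Contig10489, -1.94 for CL1Contig19501, -1.52 for CL26Contig8 and -1.32 for CL1Contig14622.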

How the results depend on the processing

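The 48 named contigs with a called interaction kept their direction under every alternative fitted, and 12 of them were called in all 20 alternatives. Both CL6409Contig1 and CL843Contig1 were called wherever they were fitted, which left out 6 fits without 1 tree, including each fit without a dry tree. The number of interaction calls was 4522 with no CPM filter, 3684 with the DESeq2 Wald test, 3432 with the likelihood ratio test and 4893 with library totals, and 500 to 5255 when 1 tree was left out. Calls made in the same direction at month 36 too numbered 4105, 3431, 3210 and 4641 under those 4 settings, and 487 to 4923 without 1 tree, against 2024. The month 36 contrast called 2604 contigs when its 6 libraries were fitted alone, and 3939 to 8723 without 1 tree. The month 1 contrast called 169 with no filter, 11 by the Wald test, 8 by the likelihood ratio test and 0 to 5 without 1 tree. Of these, 66, 3, 2 and 0 to 5 were also called at month 36 in the same direction. The change with month called 4232 to 9194 contigs in controls and 6562 to 10628 in ethephon trees without 1 tree. Of the contigs listed for PB260, 95 were positive with no filter, 36 with 1 CPM in 3 libraries and 8 to 19 without 1 tree. The looser filters admit members seen at 1 CPM only in the dry trees (45), so the 95 and 36 support nothing about the list. The main filter let in some members only with the dry trees as well, so the counts of 8 to 19 are a description. With library totals these uncalled contigs changed sign: CL1035Contig4 0.40, CL1040Contig1 0.0904, CL1040Contig2 0.19, CL1071Contig1 0.40, CL1078Contig5 0.19, CL1084Contig2 0.0835 and CL1554Contig7 0.25. Without 1 tree the uncalled CL10144Contig1 ranged over -1.64 to 0.55, CL1039Contig2 over -0.0549 to 0.41 and CL1Contig21026 over -0.50 to 0.38. The replicate block gave 1451 interaction calls, 5851 calls at month 36 and 0 at month 1, and 14 of the 48 named calls were lost. Of the same 48, 8 were lost with no CPM filter, 4 with 1 CPM in 3 libraries, 3 with the Wald test and 6 with library totals. Such losses are given above for some contigs only. Only 7 of 18 same-number correlations exceeded 0.1 (-0.44 to 0.283). With 3 trees per group these correlations cannot decide whether the numbers pair the trees, and the reported fit took the trees as unpaired. The cause of these shifts was not tested. Without the library that stood apart, 2078 interactions were called.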
